A study of Mus musculus with 16 samples.

Results

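Gp5, Epha2, Pvr and Gzmm are 4 mouse genes whose liver transcripts stood far above all other arrays of this study in the livers of LKB1 knockout mice given AICAR. They were taken as every probe whose platform annotation carries 1 of these symbols, which gave 5 of the 25697 probes on the array, namely 1 each for Gp5, Epha2 and Gzmm, and 2 for Pvr. All 5 passed the filter on dim probes, and the 4 genes are 4 of the 16593 with a symbol on the array and of the 10436 tested. The genes were selected on their measured signal, namely the difference between AICAR and saline in the knockout. That difference, and every other one of the 4 genes that uses the AICAR or saline arrays, is given as a description. Where calls in those comparisons are counted, they follow in large part from the choice and are no evidence about the genes.

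Gene expression had been measured with 1-colour Illumina arrays in total RNA from whole liver of male FVB mice aged 10 weeks. Some mice were wild-type and the others lacked LKB1 in the liver only. LKB1 is the kinase encoded by Stk11 and switches on AMPK, the AMP-activated protein kinase that senses low cell energy. Each genotype had received mineral oil, CCl4 (carbon tetrachloride, a liver toxicant, with mineral oil as its control), saline or AICAR, a nucleoside that cells turn into an AMP mimic that activates AMPK. Crossing 2 genotypes with 4 agents made 8 groups, each of 2 arrays and 16 in all: wild-type and knockout mineral oil, wild-type and knockout CCl4, wild-type and knockout saline, and wild-type and knockout AICAR. The sources used here name neither the driver of the knockout nor the doses, times after treatment and array slides.

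The 4 genes belong to unrelated families. Gp5 encodes glycoprotein V, the subunit of the platelet GPIb-IX-V receptor that thrombin cleaves. Epha2 encodes a receptor tyrosine kinase of the Eph family, which binds ephrin-A ligands on neighbouring cells and whose transcription is raised by Ras and MAP kinase signalling. Pvr encodes CD155, a nectin-like adhesion molecule that natural killer and T cells read through the activating receptor Cd226 and the inhibitory receptors Tigit and Cd96, and whose level rises in many stressed or transformed cells. Gzmm encodes granzyme M, a serine protease stored with perforin in the granules of cytotoxic lymphocytes, above all natural killer cells.

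Median probe signal lay between 172.4 and 213.7 units across the 16 arrays, and 12233 to 13730 probes were detected on an array. The knockout AICAR arrays were within both ranges, at medians of 183.8 and 177.1 and with 12964 and 13161 probes detected. Normalized log2 signal of Stk11 was 10.04 to 10.38 on the 8 wild-type arrays and 8.94 to 9.54 on the 8 knockout arrays, with no overlap. The sources used here do not say whether its probe lies in the deleted part. The 2 knockout saline arrays did not differ beyond noise: over 1868 pairs of probes to the same gene, their differences correlated at r = 0.027, against at least 0.31 for the other 119 pairs of arrays. They were averaged and counted as 1 sample, so the fits rest on 15 samples. No label links an array to an animal of its own. Every p-value rests on the spread between samples of the same group, pooled over the groups. Knockout saline, counted as 1 sample, adds nothing to that spread, which may be technical. Because whole liver was used, fewer cells of a type and less RNA per cell cannot be told apart.

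The promoter windows are shown because the 4 genes are high on the same arrays, and a reader may ask whether they share letters upstream. RefSeq (GRCm38.p6) holds 4 windows of 250 bases before to 50 bases after a start for 3 of the 4 genes. Capitals mark the only motif matches in the windows printed: the CRE (TGACGTCA) in Epha2, and the GATA-factor motif (GATAAG, here on the opposite strand) and the E-box (CACGTG) in the second Gzmm window. The windows are Epha2 at chr4:141300971-141301270 on the plus strand, Gp5 at chr16:30310732-30311031 on the minus strand and Gzmm window 2 at chr10:79693576-79693875 on the plus strand.
Epha2: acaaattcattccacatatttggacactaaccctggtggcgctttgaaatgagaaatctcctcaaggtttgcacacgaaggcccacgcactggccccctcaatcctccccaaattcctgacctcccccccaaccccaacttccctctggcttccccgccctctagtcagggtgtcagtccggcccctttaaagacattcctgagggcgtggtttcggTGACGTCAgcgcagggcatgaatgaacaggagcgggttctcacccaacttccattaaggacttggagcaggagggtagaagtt
Gp5: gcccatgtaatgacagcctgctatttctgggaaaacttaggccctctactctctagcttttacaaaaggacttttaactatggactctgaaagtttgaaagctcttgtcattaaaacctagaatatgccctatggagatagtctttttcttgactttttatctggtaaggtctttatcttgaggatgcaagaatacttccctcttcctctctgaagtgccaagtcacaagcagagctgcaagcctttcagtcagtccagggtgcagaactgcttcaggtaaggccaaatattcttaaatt
Gzmm window 2: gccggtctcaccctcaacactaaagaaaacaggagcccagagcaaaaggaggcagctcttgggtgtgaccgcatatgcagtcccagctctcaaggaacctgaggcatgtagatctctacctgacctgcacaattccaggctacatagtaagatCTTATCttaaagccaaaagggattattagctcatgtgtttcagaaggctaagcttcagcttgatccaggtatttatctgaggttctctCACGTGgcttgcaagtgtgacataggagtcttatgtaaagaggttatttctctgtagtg

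Both strands of each window were searched for 5 motifs that do not overlap in these windows, the AP-1 site (TGANTCA) and the TATA box (TATAAA) besides those named. The Epha2 window held 1 CRE, at bases -33 to -26 from the start, a motif present in 1.79% of 32851 RefSeq promoter windows of the same length. The second Gzmm window held 1 GATA match at -97 to -92 and 1 E-box at -9 to -4, motifs present in 7.44% and 7.15% of the windows. The AP-1 and TATA letters, found in 7.81% and 13.6% of the windows, were in none of the 4. Gp5 and the first Gzmm window (chr10:79688770-79689069, plus strand) held none of the 5. No searched motif was therefore shared between the 3 genes with a window, and Pvr had no window. Only the letters given were searched, so variants of these motifs may be present and shared. The GC content of the windows was 54.7% for Epha2, 41% for Gp5, and 47.3% and 46% for Gzmm.

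Gp5 showed the widest separation of all 11338 features tested. Its signal was 831.3 and 948.4 units on the knockout AICAR arrays, or 9.62 and 10.04 as normalized log2 signal. On the 14 other arrays the signal ran from 172.4 to 248.8 units, and normalized log2 signal from 5.24 to 6.4 with a median of 5.74. The knockout AICAR arrays therefore stood apart, and on the other arrays the gene was at or close to background: it was detected (detection p-value under 0.05) on 8 of the 14. In the wild-type livers the 2 AICAR arrays read 5.92 and 6.04 and the 2 saline arrays 5.72 and 5.5, of which 1 was detected, and in the knockout the saline arrays read 6.03 and 5.9. Relative to saline, AICAR went with a log2 difference of 3.87 ± 0.27 (SE) in the knockout, a 14.6-fold higher level, and of 0.37 ± 0.22 in the wild-type, with a 95% interval of -0.12 to 0.86.

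Epha2 was detected on all 16 arrays and was the member with the least separation. The knockout AICAR arrays gave 896 and 734.5 units (9.75 and 9.57 on the log2 scale), and the 14 others 190.1 to 480.3 units (6.22 to 8.03, median 6.93). The highest of the others was a wild-type CCl4 array, still 1.54 log2 units below the lower knockout AICAR array. In the wild-type, AICAR gave 6.73 and 6.39 and saline 6.9 and 7.66, so the wild-type AICAR arrays were both the lower. The knockout saline arrays read 6.6 and 6.22. The AICAR difference was 3.25 ± 0.38 (SE) in the knockout, 9.51-fold, and -0.72 ± 0.31 in the wild-type, with a 95% interval of -1.4 to -0.03. Without wild-type saline replicate 2 the wild-type value was -0.34, and without wild-type saline replicate 1 it was -1.09.

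Pvr was read by 2 probes, both high on the knockout AICAR arrays. The brighter, used in the fit, gave 1576.2 and 1469.2 units on the knockout AICAR arrays (10.62 and 10.73 on the log2 scale), against 217.9 to 369.6 units on the 14 others (6.41 to 7.52). The other probe gave 10.44 and 10.27 against 5.96 to 7.74. Both probes were detected on all 16 arrays, and neither showed overlap between the knockout AICAR arrays and the rest. In the wild-type the brighter probe read 7.36 and 6.53 with AICAR and 6.89 and 7.15 with saline, which overlapped; the knockout saline arrays read 7.33 and 7.38. The AICAR difference was 3.32 ± 0.46 (SE) in the knockout, 9.96-fold, and -0.08 ± 0.37 in the wild-type; the other probe gave 3.63 ± 0.58 and 0.45 ± 0.48. The difference between these AICAR effects was 3.39 ± 0.59 with the brighter probe and 3.18 ± 0.75 with the other, and with every probe as its own feature the first passed the threshold and the second did not.

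Gzmm differed most between the 2 knockout AICAR arrays. They gave 949.3 and 563.3 units (9.84 and 9.08 on the log2 scale), and the 14 others 169.7 to 245 units (5.33 to 6.42, median 5.9). The lower of the pair was still 2.66 log2 units above the highest other array, and the transcript was detected on 11 of the 14. In the wild-type, AICAR gave 5.97 and 5.86 and saline 5.67 and 5.38, neither of the saline arrays being well above background. The mean of the AICAR arrays was therefore at least 1.21-fold higher. A lower bound of this kind sets the brighter group against the lowest detected signal, or the dim probe's own where that is higher, on the dim arrays. It compares means of measured arrays and makes no allowance for their spread. The knockout saline arrays read 5.76 and 5.93. The AICAR difference was 3.61 ± 0.42 (SE) in the knockout, 12.2-fold, and 0.39 ± 0.34 in the wild-type, the latter from measured values that include the saline arrays near background.

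**Figure D1:**
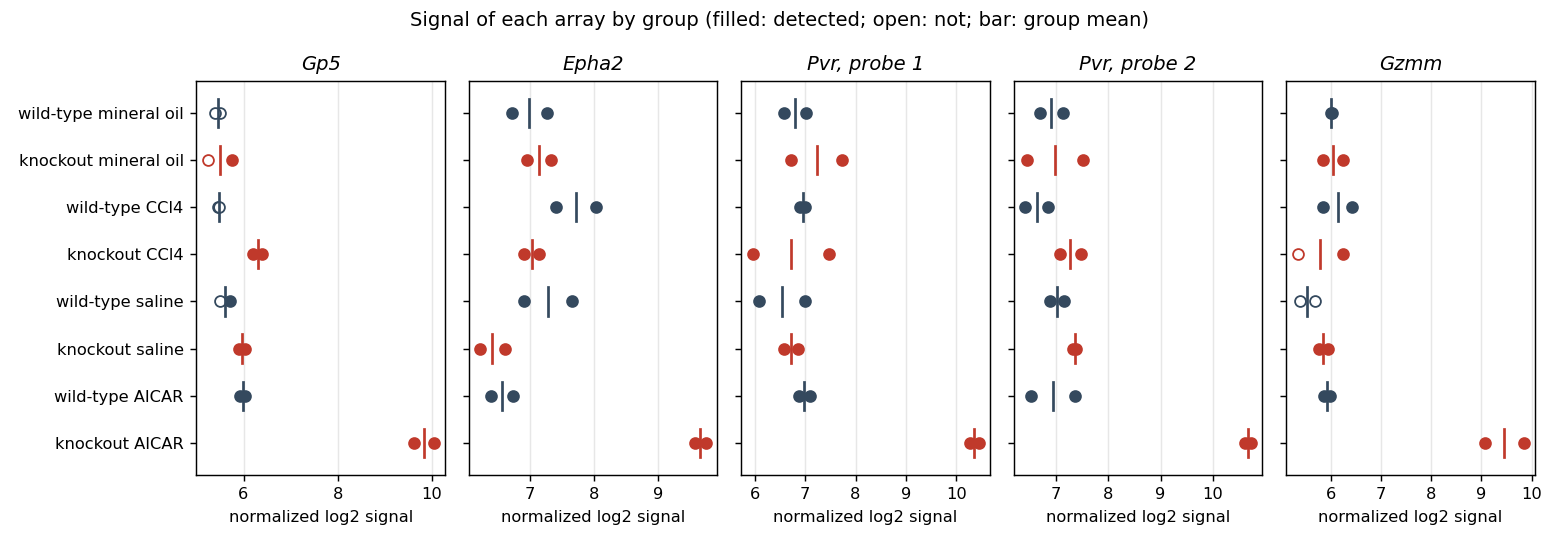
Normalized log2 signal of each array (points) in the 8 groups for the 5 probes, with bars at group means; filled points are detected and open ones are not. On every probe the 2 knockout AICAR arrays lie above the other 14, with Gp5 from 9.62 to 10.04 against at most 6.4.

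Read against all features, having both knockout AICAR arrays above the other 14 was not rare. Of 11338 features, 841 (7.42%) did so, as the 4 genes do, and 759 had both arrays below the others. The width of the gap was less common, since 101 features had a gap over 1 log2 unit. Ranked by gap, Gp5 was at rank 1 (3.23 log2 units), Pvr at rank 2 (3.1), Gzmm at rank 6 and Epha2 at rank 35. Among the features around them were Ampd1, the muscle AMP deaminase (2.98), and the transcription factors Maff (2.67), Atf3 (2.63) and Fosb (2.31).

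In the fit over all features, 136 (1.2%) were called at an adjusted p under 0.05 for AICAR against saline in the knockout, and 112 (0.988%) of the 11338 were called higher. All 4 genes were among the 112, which is how they were chosen and says nothing further. By log2 difference Gp5 was at rank 3, Gzmm at rank 6, Pvr at rank 12 and Epha2 at rank 15. In the wild-type, where 1 feature (0.00882%) was called by limma and 1210 had an unadjusted p under 0.05, none of the 4 was called. The AICAR difference in the knockout exceeded that in the wild-type by 3.5 ± 0.35 (SE) log2 units for Gp5, 3.97 ± 0.49 for Epha2, 3.39 ± 0.59 for Pvr and 3.22 ± 0.54 for Gzmm. For this difference between genotypes 34 features (0.3%) were called, 28 of them (0.247%) in the direction of the 4 genes, which were again among them, as their choice on the knockout AICAR arrays favours. Leaving out each of the 16 arrays in turn, Pvr fell out of these calls in 12 fits, Gzmm in 10, Epha2 in 3 and Gp5 in 2. None of the 4 was left without wild-type saline replicate 2 or without wild-type AICAR replicate 2. Pvr also fell out under 4 of 10 other settings and Gzmm under 2 of 9.

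**Figure D2:**
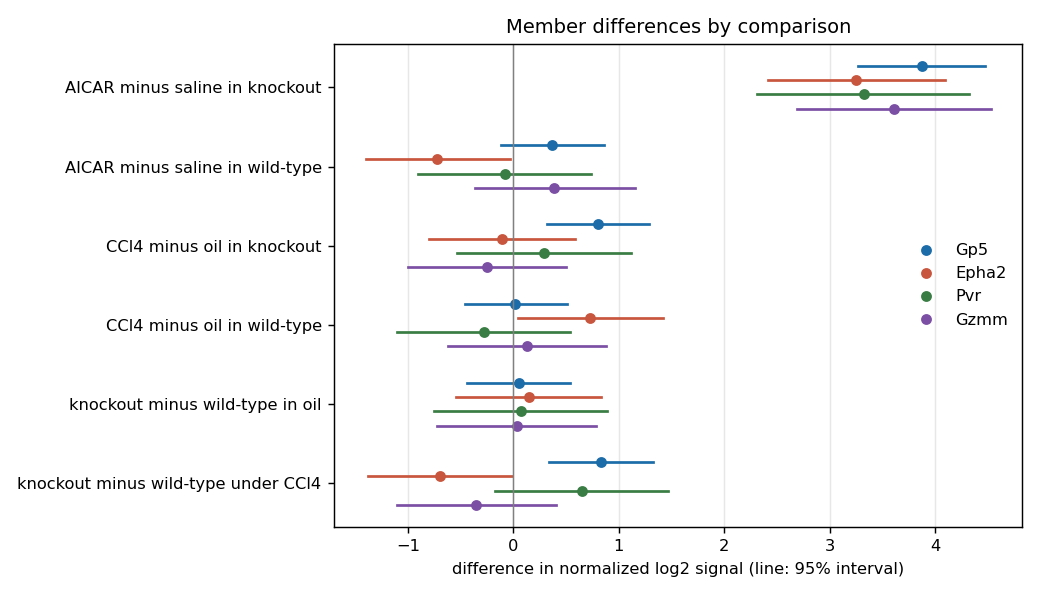
Differences in normalized log2 signal (points, with 95% intervals as lines) of the 4 genes in 6 comparisons, with Pvr by its brighter probe. AICAR minus saline in the knockout lies between 3.25 and 3.87, and the values of the other comparisons lie between -0.72 and 0.83.

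Between genotypes under AICAR, the knockout exceeded the wild-type by 3.85 ± 0.22 (SE) log2 units for Gp5, 3.1 ± 0.31 for Epha2, 3.73 ± 0.37 for Pvr and 3.54 ± 0.34 for Gzmm. This comparison shares its knockout arrays with the one above, and 854 features (7.53%) were called in it, 456 (4.02%) higher. Under saline the same 4 differences were 0.35 ± 0.27, -0.87 ± 0.38, 0.34 ± 0.46 and 0.32 ± 0.42, with none of the 4 among the 15 features called (0.132%). Epha2 alone lay lower in the knockout there, its knockout arrays at 6.6 and 6.22 and its wild-type arrays at 6.9 and 7.66. For Gzmm, not well above background on either wild-type saline array, knockout saline was at least 1.15-fold higher. The sizes depend on the background correction: without it, the AICAR differences in the knockout were 2.37 for Gp5, 2.06 for Epha2, 2.54 for Pvr and 2.1 for Gzmm, all 4 still called.

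Below the knockout AICAR group the order of the groups differed from gene to gene. Gp5 came next in knockout CCl4 (mean log2 signal 6.3 ± 0.13, SD, n = 2), then wild-type AICAR (5.98 ± 0.09) and knockout saline (5.96), and was lowest in wild-type mineral oil (5.45 ± 0.08). The knockout CCl4 arrays did not overlap with any of the groups below, whereas wild-type AICAR and knockout saline did overlap. Epha2 came next in wild-type CCl4 (7.72 ± 0.44), followed by wild-type saline (7.28 ± 0.53) and knockout mineral oil (7.13 ± 0.26), and was lowest in knockout saline (6.41). Each of these neighbours overlapped with the next. For Pvr the remaining 7 group means, from 7.36 in knockout saline to 6.63 in wild-type CCl4, differed by less than the span of the 2 knockout mineral oil arrays (6.45 and 7.52). For Gzmm they ran from 6.13 ± 0.41 in wild-type CCl4 to 5.52 ± 0.21 in wild-type saline, and the 2 knockout CCl4 arrays (5.33 and 6.24) spanned more than that range. The second Pvr probe put knockout mineral oil next (7.24 ± 0.71) and wild-type saline last (6.54 ± 0.65), so the order below the top is not fixed between probes of 1 gene.

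The 8 mineral oil and CCl4 arrays had no part in choosing the genes, and they ask whether another agent, or loss of LKB1 without AICAR, moved them. No gene of the 4 passed the test in any of the 5 comparisons these arrays allow (limma, adjusted over 11338 features). After CCl4 in the knockout, Gp5 read 6.21 and 6.4 against 5.24 and 5.76 in oil, where it was detected on 1 of 2 arrays. Both CCl4 arrays were the higher, by 0.8 ± 0.22 (SE) log2 units, yet with an adjusted p of 0.96 (limma), and 0 of 11338 features (0%) were called there while 403 had an unadjusted p under 0.05. In the wild-type Gp5 was not well above background on any CCl4 or oil array, and no fold is given. The mean of the knockout CCl4 arrays was at least 1.62-fold above that of the wild-type CCl4 arrays, with a measured difference of 0.83 ± 0.22 and a limma adjusted p of 0.12.

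For Epha2 the larger CCl4 difference was in the wild-type. In the wild-type it read 7.41 and 8.03 with CCl4 and 7.26 and 6.71 with oil, both CCl4 arrays being the higher, a difference of 0.73 ± 0.31 (SE) with a limma adjusted p of 0.52. In the knockout it read 6.91 and 7.14 with CCl4 and 6.95 and 7.32 with oil, which overlapped, a difference of -0.11 ± 0.31. Under CCl4 the knockout arrays were both lower than the wild-type ones, by -0.7 ± 0.31 log2 units (limma adjusted p 0.42). The difference between the CCl4 effects was -0.84 ± 0.44 for Epha2 and 0.78 ± 0.31 for Gp5, each with a limma adjusted p of 1. The background of these tests was 0 of 11338 features (0%) called for CCl4 in the wild-type, with 1058 at an unadjusted p under 0.05, and likewise 0 (0%) and 463 for the difference between genotypes. Under CCl4, 146 features (1.29%) were called between genotypes.

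Pvr and Gzmm gave overlapping arrays in most of these groups. Pvr read 6.85 and 6.41 with CCl4 and 6.7 and 7.13 with oil in the wild-type, and 7.07 and 7.48 with CCl4 and 6.45 and 7.52 with oil in the knockout. Its CCl4 differences with the brighter probe were -0.28 ± 0.37 (SE) in the wild-type and 0.29 ± 0.37 in the knockout. The other probe gave 0.15 ± 0.48 and -0.52 ± 0.48, opposite in sign to the brighter probe in both genotypes. The knockout exceeded the wild-type under CCl4 by 0.65 ± 0.37 with the brighter probe and by -0.24 ± 0.48 with the other, so the probes differ in sign. Gzmm read 6.42 and 5.84 with CCl4 and 6.02 and 5.99 with oil in the wild-type, and 5.33 (not detected) and 6.24 with CCl4 and 6.23 and 5.84 with oil in the knockout. Its differences were 0.13 ± 0.34 and -0.25 ± 0.34, and under CCl4 the knockout differed from the wild-type by -0.35 ± 0.34.

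In mineral oil the knockout means of the 4 genes, with the brighter Pvr probe, were within 0.15 log2 units of the wild-type means. The differences were 0.05 ± 0.22 (SE) for Gp5, 0.15 ± 0.31 for Epha2, 0.07 ± 0.37 for Pvr and 0.03 ± 0.34 for Gzmm, with 0.44 ± 0.48 for the other Pvr probe. Their 95% intervals reached from -0.44 to 0.54 for Gp5, -0.54 to 0.83 for Epha2, -0.75 to 0.89 for Pvr and -0.72 to 0.78 for Gzmm. Each interval lies below the AICAR difference of that gene in the knockout and leaves room for smaller differences. In the same comparison 141 features (1.24%) were called, and the limma adjusted p of the 4 genes lay between 0.86 and 0.98. Mineral oil against saline in the wild-type uses saline arrays that had a part in the choice. It gave -0.16 for Gp5, -0.29 for Epha2, -0.11 for Pvr and 0.48 for Gzmm. The Gzmm means were at least 1.28-fold apart, and the 95% interval of its difference was -0.27 to 1.23. By limma 0 features were called (0%), with 971 at an unadjusted p under 0.05.

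Whether the partners of Gp5 moved with it could not be read from these arrays. The other subunits of its receptor complex are Gp1ba, Gp1bb and Gp9. Gp1ba was not on the array, and Gp1bb was on the array and detected nowhere. Gp9 gave -0.25 ± 0.32 (SE) for AICAR against saline in the knockout. The Gp9 probe was detected on no knockout AICAR array and on 1 knockout saline array. The Gp9 value is therefore near background and does not show whether this gene moved. Among 10 tested markers of platelets and megakaryocytes 4 were higher, 6 lower and 0 called, with a median of -0.16 against -0.05 over all features. The chemokines of platelet granules, Pf4 and Ppbp, gave -0.49 ± 0.57 and -1.28 ± 0.72, and the integrin subunit Itga2b gave 0.15 ± 0.42. The summed background-corrected signal of the 10 was 1011 to 1162 units in knockout AICAR, 1207 to 1250 in knockout saline, and 873 to 1094 in wild-type saline and AICAR together; over all 14 other arrays it ran from 675 to 1586. Prothrombin (F2), made by hepatocytes, gave -0.15 ± 0.25, and the thrombin receptor F2r gave -0.43 ± 0.38. Between genotypes under AICAR, F2r was lower in the knockout by 1.32 ± 0.31 (limma adjusted p 0.028). Its wild-type arrays read 12.78 and 12.85 with AICAR and 12.05 and 12.05 with saline. The knockout arrays read 11.49 and 11.5 with AICAR and 11.9 and 11.96 with saline, so both genotypes contribute to that gap.

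None of the tested relatives of Epha2 was called with AICAR in the knockout. Of 6 other Eph receptors tested, 2 were higher and 4 lower with AICAR in the knockout, 0 were called, and the median was -0.43. Epha4 gave 0.81 ± 0.23 (SE) and Epha7 -1.01 ± 0.31, with limma adjusted p of 0.14 and 0.18. Epha4 was detected on no knockout saline array, and the Epha7 probe used on no knockout AICAR array. In the knockout another Epha7 probe gave overlapping arrays, 4.85 and 5.87 with AICAR and 5.64 and 5.11 with saline. Between genotypes under AICAR, Epha4 was higher in the knockout by 0.75 ± 0.19 (limma adjusted p 0.035) and Epha1 lower, at -0.69 ± 0.18 (0.047). Of the ephrins, the ligands of these receptors, 5 were tested: 2 were higher, 3 lower and 0 called, with a median of -0.05. Efna1, an ephrin-A that binds Epha2, gave 0.98 ± 0.48 (limma adjusted p 0.46). Efnb1 gave -0.81 ± 0.28, and was lower in the knockout than in the wild-type under AICAR (-0.9 ± 0.23, limma adjusted p 0.042).

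Genes that respond to Ras and MAP kinase signalling, the pathway named above for Epha2, were more often higher than lower with AICAR in both genotypes. Of 10 tested, 7 were higher and 3 lower with AICAR in the knockout, with a median of 0.69, and 1 was called. The wild-type also gave 7 higher and 3 lower, though not all the same genes, with a median of 0.23 and 0 called. Knockout against wild-type in saline gave 8 higher and 2 lower, with a median of 0.41 and 0 called. The gene called with AICAR in the knockout was Fosl1, which encodes the AP-1 subunit Fra-1, at 2.36 ± 0.31 (SE), with a limma adjusted p of 0.0055. In the wild-type Fosl1 gave -0.31. Its probe was detected on 5 arrays, of which 2 were knockout AICAR and 0 were knockout saline. The phosphatase gene Dusp4 gave 2.73 ± 1.09 and the early response factor Egr1 1.3 ± 0.42, with adjusted p of 0.33 and 0.21. Between genotypes under AICAR 9 of the 10 were higher and 4 were called: Fosl1 (2.15 ± 0.25, limma adjusted p 0.001), Ier3 (1.78 ± 0.41, 0.026), Egr1 (1.49 ± 0.34, 0.026) and Dusp6 (1.23 ± 0.29, 0.027). Without AICAR, Dusp6 differed between genotypes by 1.1 ± 0.35 in saline and 1.04 ± 0.29 in oil, and Ier3 by 1.48 ± 0.5 and 1 ± 0.41, none of them called. Their AICAR effects differed between genotypes by 0.13 ± 0.46 and 0.3 ± 0.65, against 2.67 ± 0.4 for Fosl1 (limma adjusted p 0.03) and 0.93 ± 0.54 for Egr1. The list was drawn up with results of these arrays known, and the counts stand beside 0.988% of all features called higher with AICAR in the knockout and 4.02% between genotypes.

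Among the relatives and receptors of Pvr none was called with AICAR in the knockout. Among nectins and nectin-like genes 4 were tested, 1 higher and 3 lower with AICAR in the knockout, with 0 called and a median of -0.3. Nectin2, the nectin that also binds Cd226, gave -0.73 ± 0.41 (SE), and Nectin1 gave -0.25 ± 0.3 and was lower in the knockout under AICAR (-0.95 ± 0.25, limma adjusted p 0.043). Of the receptors and ligands of Pvr, Cd226 gave 0.14 ± 0.31, vitronectin (Vtn), made by hepatocytes, 0.1 ± 0.31, and Nectin3 -0.35 ± 0.37, none called. Cd96 was detected on no array. Of NKG2D and the stress ligands it reads, 1 was tested, the receptor gene Klrk1 itself, at -0.29 ± 0.55. Its probe was likewise detected on no knockout AICAR or knockout saline array. The Cd226 and Klrk1 values are therefore at background and do not show whether these genes moved.

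The other granzymes and perforin, which share granules with Gzmm, were mostly below background. Of 10 on the array 2 passed the filter, Gzmd at -0.93 ± 0.48 (SE) and perforin (Prf1) at 0.23 ± 0.29 with AICAR in the knockout, neither called. The Gzmd probe used was detected on no knockout AICAR array. In the knockout the other Gzmd probe gave overlapping arrays, 5.85 and 5.68 with AICAR and 6.01 and 5.51 with saline. Gzma, Gzmb, Gzmc, Gzme, Gzmf, Gzmg and Gzmn were detected on 0 of 16 arrays and Gzmk on 1, which was not a knockout AICAR array. Of 6 tested markers of natural killer cells 3 were higher, 3 lower and 0 called, with a median of 0.07, while Ncr1, Klrb1c, Klre1 and Eomes were detected on no array. The summed signal of the 6 was 2894 to 3983 units in knockout AICAR, 4720 to 5366 in knockout saline, 4586 to 5216 in wild-type AICAR and 4333 to 4518 in wild-type saline. Arrays of the oil and CCl4 groups reached lower as well as higher, from 2578 to 5598, so sums as low occurred without AICAR. This natural killer sum rests mostly on Ccl5 and Prf1, at mean log2 signals of 11.09 and 10.36. Among the 3 higher markers, Il2rb and Tbx21 were detected on no knockout saline array, and Tbx21 on no knockout AICAR array either. Of 6 T cell markers 1 was higher, 5 lower and 0 called, with a median of -1.01. Their sum was 744 to 918 units in knockout AICAR, 1801 to 1811 in knockout saline, 1361 to 1506 in wild-type saline and 1321 to 1483 in wild-type AICAR. Over the oil and CCl4 arrays it ran from 615 to 2262, so equally low sums occurred without AICAR.

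**Figure D3:**
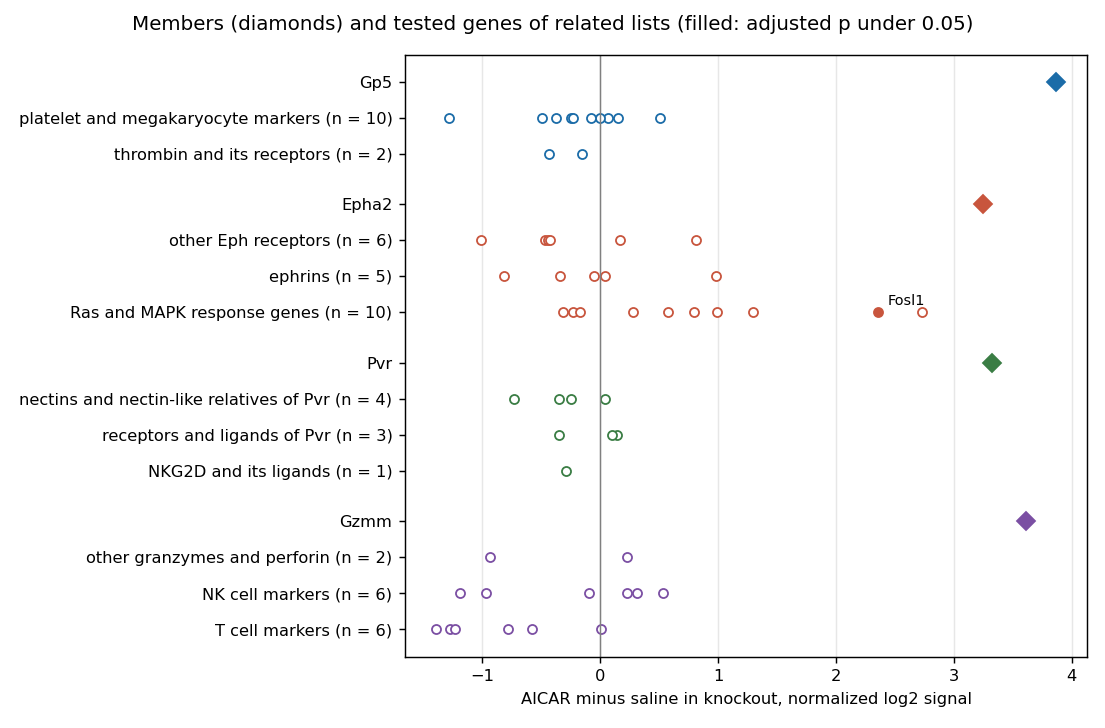
Difference in normalized log2 signal for AICAR minus saline in the knockout, for the 4 genes (diamonds) and each tested gene of their related lists (circles, filled where the limma adjusted p is under 0.05). The diamonds lie between 3.25 and 3.87, and Fosl1, at 2.36, is the filled circle.

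Markers of other liver cells were lower or higher on the knockout AICAR arrays than in knockout saline, without calls. All 6 neutrophil markers were lower, with a median of -1.79 and 0 called; S100a9 gave -1.92 ± 0.71 (SE) and Ltf -2.43 ± 0.9. Their sum was 1461 to 3794 units in knockout AICAR, 8089 to 8587 in knockout saline, 4225 to 6032 in wild-type saline and 4261 to 6549 in wild-type AICAR, and 1964 to 6388 over the oil and CCl4 arrays. All 6 stellate cell markers were lower too, with a median of -0.41 and 0 called, their sum being 11323 to 12159 units against 18166 to 18466 in knockout saline. The other knockout groups reached that lower level without AICAR, at 10055 to 15360 units in mineral oil and 11312 to 16743 in CCl4, and the wild-type arrays ran from 15700 to 23563. Between genotypes under AICAR, Col1a1 was the stellate marker called (-2.52 ± 0.63, limma adjusted p 0.037).

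Hepatocyte markers, 3 of 6 higher, had a median of 0 and a sum of 261848 to 270056 units against 265640 to 268015 in knockout saline. The sum rests mostly on very bright probes, such as Trf, Ttr and Apoa1 at mean log2 signals of 16.03, 15.97 and 15.9. The Alb probe averaged only 6.16 and was detected on 1 of the 2 knockout AICAR arrays. The medians were -0.07 over 6 endothelial markers, 2 of them higher, and -0.15 over 5 Kupffer cell markers, 2 of them higher. The B cell marker Cd79b gave 0.13 ± 0.55 (SE). Of 2 tested cholangiocyte markers Sox9 gave 2.3 ± 0.49 (limma adjusted p 0.055) and Krt7 -0.61 ± 0.3. None of these was called. The part of neutrophils, T cells, stellate cells or the Sox9 difference in the values of the 4 genes was not tested.

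The features whose pattern was most like each gene were taken by Pearson correlation over the 15 samples, as a description, since any feature high in the 2 knockout AICAR samples scores high. For Gp5 these were Mycbpap (r = 0.976), Reps1 (0.971), Pvr (0.969), an unnamed probe and Ampd1 (0.962). Pvr had Gp5, Reps1 (0.962), Mycbpap (0.961), Shd (0.958) and Tph2 (0.957), so 2 of the 4 genes were near each other's top, with Gp5 first for Pvr. Gzmm had Ghrl, the ghrelin gene (0.975), Fosb (0.974), Zpr1 (0.973), Ythdc1 (0.967) and Gdf9 (0.964). Epha2 had lower values, with Gpat3 (0.931), Siah2 (0.927), Bud13 (0.922), an unnamed probe and Sertad1 (0.911).

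Without the knockout AICAR samples all of these correlations were lower, to differing extents. Over the remaining 13 samples Gp5 correlated at 0.505 with Pvr, 0.473 with Mycbpap and 0.153 with Ampd1. Pvr lay between 0.189 (Tph2) and 0.505 with its 5 features, and Gzmm between 0.478 (Gdf9) and 0.619 (Ythdc1). Epha2 lay between 0.463 (Sertad1) and 0.708 (the unnamed probe), with Siah2 at 0.622. Among the 4 genes themselves the pairs ran from 0.84 (Gp5 and Epha2) to 0.969 (Gp5 and Pvr) over 15 samples. Over 13 samples Gp5 and Epha2 stood at -0.39, Gp5 and Gzmm at -0.214, Epha2 and Pvr at -0.197, Pvr and Gzmm at -0.126, and Epha2 and Gzmm at -0.0343. Apart from Gp5 and Pvr, then, no pair was positively correlated outside the knockout AICAR samples. Signals near background, as for Gp5 and Gzmm, limit what these correlations can show.

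The 4 genes lie on different chromosomes, 16 for Gp5, 4 for Epha2, 7 for Pvr and 10 for Gzmm, and none of their neighbours was called. Taking 5 tested genes on each side by order of start in RefSeq GRCm38.p6, AICAR against saline in the knockout gave -0.43 to 1.39 log2 units around Gp5, where Hes1 (1.39) and Opa1 (1.17) were the highest. Around Epha2 the range was -0.49 to 0.58, around Pvr -0.87 to 0.99 (Bcl3, the tested gene next to it), and around Gzmm -0.23 to 0.48. Nectin2, a relative of Pvr, is 4 tested genes away from it, at -0.73.

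Gzmm shares chromosome 10 with Stk11, the gene deleted in the knockout, with 27 protein-coding genes between them. Of these, 21 were tested for AICAR against saline in the knockout; 8 were higher, 13 lower and 0 called by limma, in a range of -1.12 to 0.76. In mineral oil, where the knockout can be read without AICAR, Gzmm differed between genotypes by 0.03 ± 0.34 (SE), while Stk11 differed by -1.16 ± 0.19 (limma adjusted p 0.018).

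**Figure D4:**
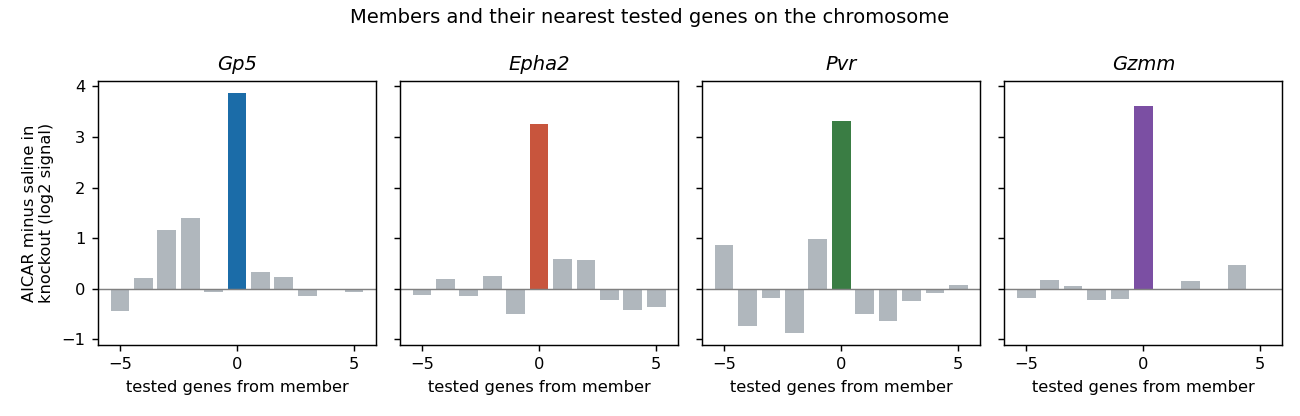
AICAR minus saline in the knockout (normalized log2 signal) for each of the 4 genes, at 0, and for the 5 nearest tested genes on each side in chromosome order. The gene in the middle stands at 3.25 to 3.87 in each panel, and the neighbours lie between -0.87 and 1.39.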

How the data were processed

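Total RNA had been labelled as biotinylated cRNA and hybridised to 1-colour Illumina arrays, per the labels' protocols. The table deposited by the authors holds a linear intensity per probe and array before any normalization, with a detection p-value deposited beside it. Per the submitters' processing notes GenomeStudio was used, but the sources used here give no version. The normalized intensity table deposited by the authors, with column medians of 190.9 to 191.1 and a rank correlation of 1 with the signal on each array, was an alternative. The sources used here do not say how it was normalized or whether background was subtracted in it.

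The analysis ran in R 4.3.3 and limma 3.58.1, with normexp background correction from the detection p-values (neqc, offset 16), quantile normalization and log2. At least 2 arrays with a detection p-value under 0.05 were required of a probe, which 15411 met, and for each gene the probe of highest mean was used, giving 11338 features, 902 of them without a symbol. Symbols came from the platform annotation, in which 23978 probes had 1 symbol, 1719 none and 0 several; 23962 matched RefSeq by Entrez number. Group means were fitted over 15 samples (7 residual and 3.76 prior degrees of freedom). P-values were two-sided, with Benjamini-Hochberg adjustment over all features and a threshold of 0.05. Precision is limited by the number of arrays. The script was tested on simulated data.

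The genes, the lists and the tests were chosen with earlier results of these data known. The text names the 4 genes, Stk11, the called members of each list and otherwise up to 3 members with the smallest p-value or highest mean, and for each gene the 5 features of highest correlation; the features named for their gap and the chromosome neighbours were named after their values were seen. As alternatives served median centring, no background correction, the authors' values, other probe filters, every probe, both knockout saline arrays as samples, only the arrays compared, a replicate block, a trended and robust variance, and leaving out each array.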

Additional observations from a re-analysis of the deposited data

Results flagged for a closer look

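For 4 results the fitted difference between the AICAR effects in knockout and wild-type passed the threshold in limma: Gp5, with 3.5 log2 units, Epha2, with 3.97, Pvr, with 3.39, and Gzmm, with 3.22. The genes were chosen on the knockout AICAR and saline arrays that enter this difference, so passing was largely fixed by the choice, and the 4 values are a description and no test of a difference between genotypes.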

How the results depend on the processing

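The counts of the 4 genes called were stable for AICAR against saline and knockout against wild-type under AICAR (4 in each), except that the stricter filter measured only Epha2 and Pvr and called 2 in each. For the difference of AICAR effects 4 were called, but 3 with median centring, 2 without a filter, 1 with the stricter filter, 2 with the replicate block, and 0 to 4 leaving out 1 array; 0 remained without wild-type saline replicate 2 or wild-type AICAR replicate 2, and a lone array in a group lowers precision by itself. Over all features AICAR against saline in the knockout gave 136 calls, 101 to 652 under the alternatives (652 with both knockout saline arrays as samples) and 54 to 159 leaving out 1 array. The difference of effects gave 34 calls, 17 to 118 and 0 to 41. Calls between genotypes were 854 under AICAR (743 to 1162; 229 to 1096), 15 in saline (0 to 94; 2 to 17), 141 in oil (17 to 243; 32 to 172) and 146 under CCl4 (44 to 222; 40 to 178). Deviations of same-numbered replicates from their group means correlated from -0.4 to 0.48 over 28 pairs of groups, with 6 above 0.1. Between AICAR and saline the correlation was -0.13 in the wild-type and 0.01 in the knockout. Same-numbered replicates thus deviated together in some pairs of groups and not throughout. The block left 116 and 17 calls for AICAR in the knockout and the difference of effects. What the replicate numbers stand for was not tested.

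Of 1122 single-gene values 1066 kept direction and call, 33 lost the call, all in the difference of AICAR effects, and 23 changed sign, none of them called; the cause was not tested. With median centring Pvr became 0.00141 for AICAR in the wild-type, Gp5 -0.02 for CCl4 in the wild-type and Gzmm -0.0126 for knockout against wild-type in oil. Leaving out 1 array gave -0.491 to 0.338 for Pvr with AICAR in the wild-type. For CCl4 in the wild-type it gave -0.035 to 0.0816 for Gp5 and -0.158 to 0.416 for Gzmm, and in the knockout -0.296 to 0.0729 for Epha2, -0.707 to 0.21 for Gzmm and -0.242 to 0.832 for Pvr. The difference of CCl4 effects was -0.836 to 0.0803 for Gzmm. Between genotypes in oil the ranges were -0.127 to 0.418 for Epha2, -0.211 to 0.309 for Gp5, -0.161 to 0.225 for Gzmm and -0.468 to 0.606 for Pvr, and under CCl4 -0.804 to 0.112 for Gzmm. Oil against saline gave -0.669 to 0.0862 for Epha2 and -0.324 to 0.111 for Pvr. Gp5 and Gzmm lie near background outside knockout AICAR, which limits their fold changes.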
